A study of Mus musculus with 10 samples.

Results

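The genes described here are 34 genes of the unfolded protein response and the integrated stress response, listed by name: 14 chaperones and folding enzymes of the endoplasmic reticulum (ER), 3 genes of the IRE1 and ATF6 sensors and their factor XBP1, 5 genes of the PERK and eIF2α branch, 6 targets of the transcription factor ATF4, and 6 genes of ER-associated degradation. They were read in the raw gene counts of a table of 53465 genes, and the 33 that had a level of at least 1 CPM (counts scaled to library size) in at least 5 libraries were compared between the genotypes. Chac1 was the gene left out. The list was chosen with earlier results of these data known, so shares set beside those of all genes are a description and not a test. The libraries were bulk RNA sequencing of cultured peritoneal macrophages from 5 Mac-GsαKO libraries (KO), named for the loss of Gsα in macrophages, and 5 control libraries (CTR). Both came from mice aged 6 to 8 weeks, and the cells of both had standard culture medium with serum and antibiotics and no added treatment. The labels name neither the promoter or Cre line behind the deletion nor the alleles of the controls, and do not say whether each library came from its own mouse. Errors and p-values therefore reflect variation among 5 libraries a genotype, which may be technical.

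When unfolded proteins build up in the ER, 3 membrane sensors signal to the nucleus. IRE1 splices the Xbp1 mRNA so that it encodes an active factor, ATF6 is cut to release a factor, and PERK phosphorylates eIF2α, which lowers translation in general while ATF4 is made. XBP1 and ATF6 raise ER chaperones and the machinery that removes misfolded proteins, and ATF4, which other eIF2α kinases also induce, raises amino acid genes and the factor CHOP. Macrophages rely on this system for secretion, and ER stress is a known feature of cholesterol-loaded foam cells. Gsα, encoded by Gnas, couples receptors to cAMP, and the comparison of KO with CTR asked which transcripts differ without it in a study of foam cell formation. These are levels of mRNA per gene, so neither the splicing of Xbp1 nor the phosphorylation or cleavage of any sensor was measured.

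Library totals lay between 16877249 and 19235777 counts in KO and between 15664243 and 18028974 in CTR, and a used member had between 24 and 20166 counts in a library. Gnas had 40.2 ± 2.62 CPM in KO, against 435 ± 62.4 CPM in CTR (SD, n = 5 each), and was 10.8-fold lower (edgeR adjusted p = 9.16e-09). CTR 4 and CTR 5 stood apart from the other libraries, both at -34.7 on the first principal component, where KO libraries lay between 11.6 and 28.7 and the other CTR libraries between -18.5 and -6.85. The slope of log2 level, relative to the CTR mean of each gene, on log2 gene length was -0.100 in CTR 4 and -0.044 in CTR 5. In the other libraries it lay between 0.0153 and 0.0674. CTR 4 also had the fewest genes detected, 17894, against 18479 to 18985 in the others. The part of gene length in the values of CTR 4 and CTR 5 given below was not tested. Mitochondrial genes held 1.204 to 1.36% of counts in KO and 1.39 to 1.97% in CTR. Of 10 core macrophage markers, 9 had counts in every library and Cd163 averaged 0.219 CPM in KO and 0.377 CPM in CTR. The summed level of the 10 was 14889 to 16447 CPM in KO and 30289 to 38671 CPM in CTR, most of it Lyz2, which averaged 9240 CPM in KO and 26528 CPM in CTR. Of the markers tested, 3 were lower in KO in value, Lyz2 among them (edgeR adjusted p = 2.03e-05), and 6 were higher. Csf1r averaged 1295 CPM in KO and 942 CPM in CTR (edgeR adjusted p = 0.0235). Itgam averaged 652 CPM in KO and 377 CPM in CTR (edgeR adjusted p = 0.0494).

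None of the 33 genes passed the test, the edgeR quasi-likelihood test with Benjamini-Hochberg adjustment over all 13203 genes tested and a threshold of 0.05, while 3.94% of all genes did. Their adjusted p ran from 0.0648 to 0.966. A gene that did not pass is not thereby shown to be unchanged. At an unadjusted p under 0.05, 13 of the 33 were lower in KO and 2 were higher, and of all genes tested 21.9% had such a p, 11.9% lower and 10.0% higher. The median log2 fold change of KO over CTR was -0.22 over the 33 genes and -0.01 over all genes tested. With other tests some members passed: 4 by the DESeq2 Wald test (Asns, Hsp90b1, Pdia4 and Xbp1) and 7 by limma voom with quality weights (Canx, Dnajb9, Dnajc3, Hsp90b1, Pdia3, Pdia4 and Xbp1), all lower in KO, where those tests called 9.76% and 14.5% of all genes. Of all 520 genes called by edgeR, 241 were higher and 279 lower in KO, and with library-size scaling alone the split was 312 higher and 213 lower.

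**Figure D1:**
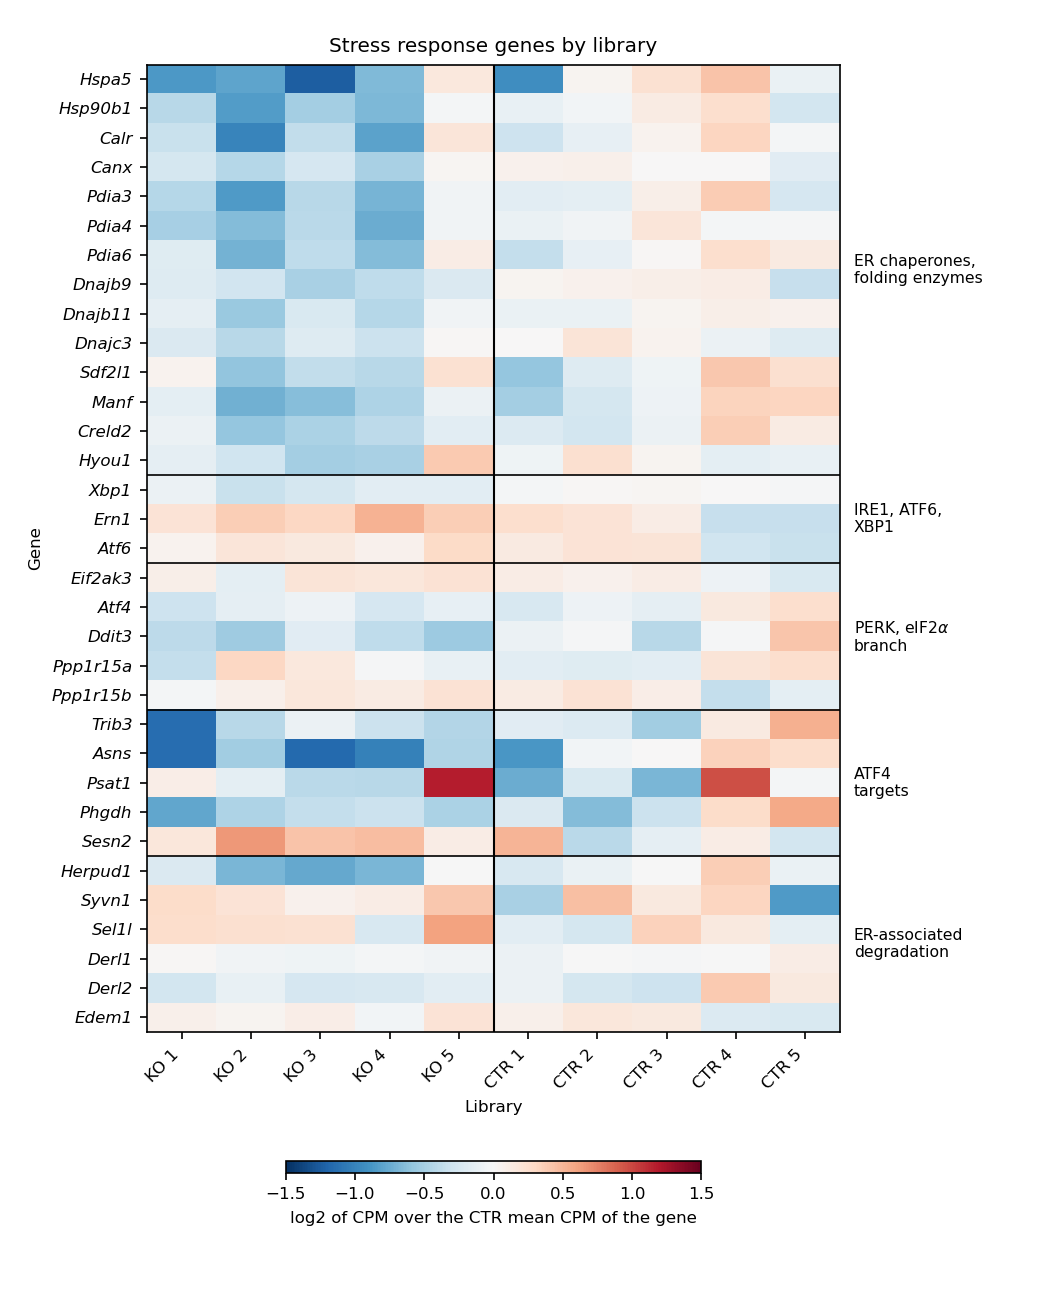
Colour shows the log2 of a library's CPM over the mean CPM of that gene in CTR, for the 33 genes used (rows, by role) in the 5 KO libraries (left of the line) and the 5 CTR libraries (right). The ER chaperones are lower in KO 2, KO 3 and KO 4 than in most CTR libraries, while KO 5 lies near the CTR mean. Psat1 is highest in KO 5 and CTR 4.

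The 14 ER chaperones and folding enzymes were all lower in KO in value, as were 50.8% of all genes, and none passed the test in the edgeR fit of all libraries. These proteins fold and retain client proteins in the ER. Of the 14, 9 had an unadjusted p under 0.05, against 11.9% of all genes that were lower at that level, and the median log2 fold change was -0.33, with single values from -0.60 (Hspa5) to -0.17 (Hyou1). All 14 were lower also with DESeq2 size factors and with library-size scaling alone, and 8 and 6 of them had an unadjusted p under 0.05 there. Of all genes, 11.4% and 9.04% were lower at that level in those fits. The summed level of the 14 was 3008, 2319, 2828, 2497 and 4126 CPM in KO 1 to KO 5, and 3282, 3778, 4156, 4724 and 3659 CPM in CTR 1 to CTR 5. KO 1 to KO 4 thus lay below every CTR library, and KO 5 lay above 3 of them. As a share of all counts the 14 genes held 0.299 ± 0.0715% in KO and 0.385 ± 0.0402% in CTR (SD, n = 5 each). In bulk RNA, fewer cells that make a transcript and less of it per cell cannot be told apart.

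Several of these genes carry the ER stress response element (ERSE), the paired site that ATF6 and XBP1 are known to use with the factor NF-Y. The letters CCAAT and CCACG, 9 bases of any kind apart, were searched on both strands of RefSeq promoter windows, 250 bases before to 50 after each start site on GRCm38.p6, a build other than the GRCm39 named for the counts. Windows were at hand for 29 of the 34 genes and for 12 of the 14 chaperones. ERSE was in the windows of 7 of those 12 chaperones and of Syvn1, and in 0.119% of all 32851 windows. The 7 chaperones with it had log2 fold changes from -0.60 (Hspa5) to -0.22 (Dnajc3), while Pdia3, Pdia4, Dnajb9 and Sdf2l1, without it, had -0.46, -0.45, -0.31 and -0.18. Syvn1, which also has ERSE, was higher in KO in value at 0.22. The shorter ERSE-II, ATTGG and CCACG with 1 base of any kind between them, which holds the same pair of sites as ERSE with CCAAT inverted, was in the windows of Dnajb11 and Herpud1 and in 0.037% of all windows. A match is a run of letters, and binding was not measured. The members were listed as known genes of this response, so these shares are a description and not a test. The sites are shown 5′ to 3′ on the strand of the gene, with 15 bases on either side in lower case and the matched letters in capitals, because 8 of the 12 chaperones with a window hold one of them:
Hspa5 ERSE, chr2:34772010-34772058, + strand: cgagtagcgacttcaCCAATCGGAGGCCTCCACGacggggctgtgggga
Hsp90b1 ERSE, chr10:86705623-86705671, - strand: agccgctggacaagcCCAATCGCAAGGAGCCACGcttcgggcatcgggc
Hsp90b1 ERSE reversed, chr10:86705518-86705566, - strand: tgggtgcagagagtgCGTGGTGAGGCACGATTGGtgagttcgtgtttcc
Calr ERSE reversed, chr8:84847060-84847108, - strand: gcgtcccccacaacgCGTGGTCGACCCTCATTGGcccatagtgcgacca
Canx ERSE, chr11:50325785-50325833, - strand: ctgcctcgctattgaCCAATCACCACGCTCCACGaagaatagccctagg
Pdia6 ERSE, chr12:17266476-17266524, + strand: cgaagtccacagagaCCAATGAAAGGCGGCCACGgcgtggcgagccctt
Dnajc3 ERSE, chr14:118937812-118937860, + strand: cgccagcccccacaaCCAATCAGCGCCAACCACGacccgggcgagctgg
Creld2 ERSE reversed, chr15:88819505-88819553, + strand: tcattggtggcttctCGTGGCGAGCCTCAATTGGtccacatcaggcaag
Syvn1 ERSE, chr19:6046517-6046565, + strand: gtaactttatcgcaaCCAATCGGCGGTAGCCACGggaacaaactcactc
Dnajb11 ERSE-II, chr16:22857837-22857877, + strand: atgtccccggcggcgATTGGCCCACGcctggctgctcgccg
Herpud1 ERSE-II, chr8:94386362-94386402, + strand: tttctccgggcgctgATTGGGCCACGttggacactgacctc

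Hspa5 encodes BiP, the main ER chaperone, which also holds the 3 sensors inactive. It stood at 300.4, 316, 233, 346 and 610.0 CPM in KO 1 to KO 5, against 288, 561, 638, 735 and 512 CPM in CTR 1 to CTR 5. The groups overlapped at both ends, since KO 5 was near the upper CTR libraries and CTR 1 near the lower KO libraries. Its log2 fold change was -0.60 (SE 0.27, adjusted p = 0.220). With 1 library left out it ran from -0.87 (without KO 5, SE 0.23, adjusted p = 0.0579) to -0.47. Hsp90b1, which encodes the ER paralog of HSP90 known as GRP94, stood at 359, 267, 338, 300.2 and 469 CPM in KO, against 443, 464, 520.97, 572 and 396 CPM in CTR. The 4 libraries KO 1 to KO 4 lay below the lowest CTR library. The log2 fold change was -0.47 (SE 0.15, adjusted p = 0.0936), and Hsp90b1 passed when KO 5 was left out, at -0.60 (SE 0.13, adjusted p = 0.0303). It passed in no other fit with 1 library left out, and the weakest of these gave -0.39.

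Calreticulin and calnexin bind glycoproteins in the ER. Calr, the gene of this group with the highest level per length, at 184 ± 59.8 FPKM in KO and 236 ± 30.3 FPKM in CTR, stood at 810.3, 514, 793, 584 and 1158 CPM in KO, against 827, 937, 1065, 1282 and 1005 CPM in CTR (log2 fold change -0.41, SE 0.20, adjusted p = 0.250). KO 5 was above all CTR libraries but CTR 4, and the other KO libraries were below all of them. Canx stood at 384, 342, 387, 328 and 471 CPM in KO, against 481, 487, 464, 461 and 409 CPM in CTR (-0.27, SE 0.10, adjusted p = 0.154). Again KO 1 to KO 4 lay below the lowest CTR library, which was CTR 5.

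The protein disulfide isomerases form and rearrange disulfide bonds. Pdia4 had the lowest adjusted p of all members, at 77.0, 69.0, 81.7, 64.6 and 105 CPM in KO, against 101, 104, 123, 106 and 107 CPM in CTR. The 4 libraries KO 1 to KO 4 were below every CTR library, and KO 5 was among the lower CTR libraries. The fitted log2 difference for Pdia4 was -0.45 (SE 0.12, adjusted p = 0.0648), and the gene passed in the fit that omitted KO 5 at -0.57 (SE 0.10, adjusted p = 0.0181). Omitting any other single library gave no pass for Pdia4, and the weakest value was -0.38. Pdia3, the partner of calreticulin and calnexin, stood at 452, 337, 455, 377 and 585 CPM in KO, against 547, 549, 646, 792 and 512 CPM in CTR, again with KO 1 to KO 4 below every CTR library (-0.46, SE 0.16, adjusted p = 0.113). Without KO 5, Pdia3 passed at -0.59 (SE 0.15, adjusted p = 0.0485). It did not pass with any other single library left out, where the weakest value was -0.35. Pdia6 averaged 172 ± 41.8 CPM in KO and 216 ± 34.1 CPM in CTR (-0.33, SE 0.16, adjusted p = 0.259).

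DNAJ proteins are co-chaperones of BiP. Dnajb9, a target of XBP1, stood at 38.5, 36.3, 31.4, 34.04 and 38.1 CPM in KO, against 45.5, 46.2, 46.8, 47.7 and 34.7 CPM in CTR. The 4 libraries CTR 1 to CTR 4 lay above all KO libraries, and CTR 5 lay within them. Its log2 fold change was -0.31 (SE 0.10, adjusted p = 0.114), and it passed without CTR 5 (-0.38, adjusted p = 0.0383) and without CTR 4 and CTR 5 (-0.37, adjusted p = 0.0242). Dnajb9 did not pass with any other single library left out, where the weakest value was -0.26. Dnajb11 stood at 100.1, 74.7, 93.5, 81.5 and 106 CPM in KO, against 102, 102, 113, 117 and 115 CPM in CTR (-0.27, SE 0.10, adjusted p = 0.157). Dnajc3, which encodes the inhibitor p58IPK, stood at 98.9, 86.2, 101, 91.9 and 116 CPM in KO, against 115, 131, 119, 109 and 101 CPM in CTR (-0.22, SE 0.10, adjusted p = 0.227). For both, KO 1 to KO 4 lay below the lowest CTR library by a small margin. Over the whole group, 7 of the 14 genes had 4 KO libraries below the lowest CTR library. The share of all genes with 4 such libraries was not counted. In none of the 14 were all 5 below it, against 4.55% of all genes tested.

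The remaining folding factors also overlapped between the genotypes. Creld2 stood at 23.6, 16.8, 18.02, 19.1 and 22.5 CPM in KO, against 21.7, 20.6, 23.5, 32.2 and 27.2 CPM in CTR (-0.32, SE 0.14, adjusted p = 0.208). Manf, a secreted ER stress protein, averaged 40.5 ± 8.02 CPM in KO and 53.1 ± 13.3 CPM in CTR (-0.39, SE 0.18, adjusted p = 0.230). Both were highest in CTR 4 and CTR 5, whose removal brought Manf to -0.12 and Creld2 to -0.13. Sdf2l1 averaged 59.3 ± 14.5 CPM in KO and 67.4 ± 17.2 CPM in CTR (-0.18, SE 0.20, adjusted p = 0.618), and had 0.08 without CTR 4 and CTR 5. Hyou1, a large HSP70-like chaperone, averaged 55.5 ± 15.65 CPM in KO and 62.3 ± 6.89 CPM in CTR (-0.17, SE 0.16, adjusted p = 0.581).

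**Figure D2:**
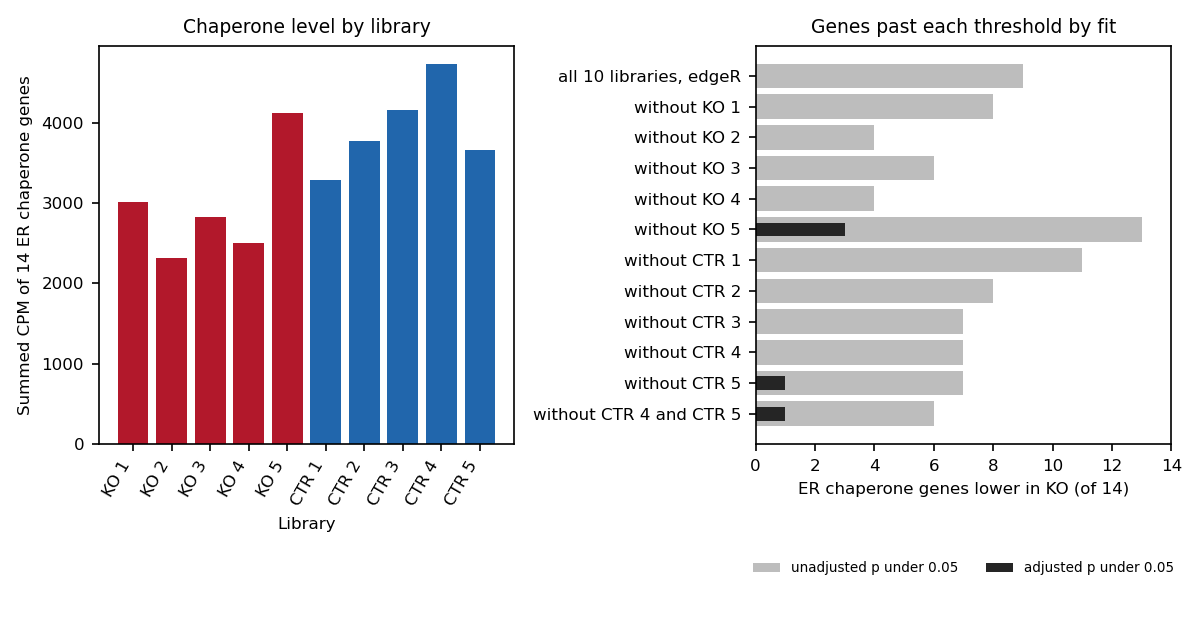
Left, bars give the summed CPM of the 14 ER chaperone genes in each KO library (red) and each CTR library (blue), from 2319 in KO 2 to 4724 in CTR 4. Right, grey bars count the chaperone genes that are lower in KO with an unadjusted p under 0.05 in each edgeR fit, and black bars those with an adjusted p under 0.05. The grey count is 9 with all libraries, 13 without KO 5 and 4 without KO 2 or without KO 4. Of all genes tested, 11.9%, 12%, 8.92% and 9.46% were lower at that level in these fits, in that order.

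Among the fits that left out 1 library, the one without KO 5 moved the median of the chaperones the most. KO 5 was the highest KO library for 12 of the 14 genes, and CTR 4 was the highest CTR library for 10 of them. Without KO 5, 13 of the 14 had an unadjusted p under 0.05, 3 passed, and the median log2 fold change was -0.42. Of all genes in that fit, 12% were lower at that unadjusted level, and 2.17% were lower and passed. Without KO 2 or without KO 4 the number at an unadjusted p under 0.05 was 4, none passed, and the medians were -0.28 and -0.30. In these fits 8.92% and 9.46% of all genes were lower at that level, and 0.225% and 0.54% were lower and passed. Without CTR 4 and CTR 5, 13 of the 14 were lower in value, 1 passed, and the median was -0.30. There, 3.63% of all genes were lower and passed. KO 5 had 1.36% of counts in mitochondrial genes and 18717 genes detected, against 1.204 to 1.32% and 18683 to 18985 genes in the other KO libraries. Plasma cells are known for high ER chaperone levels, and their defining markers Jchain, Mzb1, Tnfrsf17 and Derl3 were at or under 0.933 CPM in all 10 libraries. The 8 plasma cell markers summed to 198 to 263 CPM in KO and 223 to 310 CPM in CTR, most of it Sdc1, which averaged 209 CPM in KO and 238 CPM in CTR. Prdm1 averaged 27.6 CPM in KO and 19.1 CPM in CTR (0.53, edgeR adjusted p = 0.130), and Irf4 averaged 4.14 CPM in KO and 2.74 CPM in CTR (0.59, adjusted p = 0.182). The 6 fibroblast markers summed to 48.8 to 65.3 CPM in KO and 30.1 to 137 CPM in CTR, and the 6 mesothelial markers to 17.6 to 25.8 CPM in KO and 7.30 to 50.6 CPM in CTR. Both were highest in CTR 5. The part of these other cells in the result was not tested.

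Of the sensors of the ER membrane and XBP1, Xbp1 was lower and Ern1 higher in KO in value, and neither passed. Xbp1, the gene whose mRNA IRE1 splices, stood at 186, 157, 165, 177 and 177 CPM in KO, against 194, 199.6, 202, 199 and 195 CPM in CTR. It was the sole member in which the genotypes did not overlap, against 7.80% of all genes tested, 4.55% lower and 3.25% higher in KO, with 172 ± 11.4 CPM in KO and 198 ± 3.44 CPM in CTR (SD, n = 5 each), where the libraries lay close together. The log2 fold change was -0.20 (SE 0.07, adjusted p = 0.129), and between -0.23 and -0.16 in the 20 other settings. At 38.7 ± 2.48 FPKM in KO and 43.4 ± 2.03 FPKM in CTR, Xbp1 had the highest level per length of the 3 genes. Ern1, which encodes IRE1α, stood at 64.5, 72.2, 69.3, 80.0 and 71.9 CPM in KO, against 66.7, 64.1, 60.4, 43.9 and 43.9 CPM in CTR. CTR 4 and CTR 5 were the low libraries, and KO 1 was within the range of CTR 1 to CTR 3. The fitted log2 difference for Ern1 was 0.36 (SE 0.13, adjusted p = 0.134). Without CTR 4 and CTR 5 it was 0.17 (SE 0.08, adjusted p = 0.211). Atf6 showed the same pair of low libraries, at 112, 122, 119, 113 and 131 CPM in KO, against 118, 124, 123, 87.4 and 85.1 CPM in CTR (0.15, SE 0.12, adjusted p = 0.502). Its log2 fold change was -0.03 when CTR 4 and CTR 5 were left out.

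The PERK branch showed no common direction, with 2 of 5 genes lower and 3 higher in value and a median of 0.01. Eif2ak3, which encodes PERK, stood at 36.5, 31.1, 39.5, 38.8 and 39.9 CPM in KO, against 37.0, 36.05, 37.1, 32.6 and 29.3 CPM in CTR (0.11, SE 0.10, adjusted p = 0.560). Atf4, the main factor of the integrated stress response, stood at 157, 177, 184, 163 and 179 CPM in KO, against 164, 185, 177, 216 and 231 CPM in CTR (-0.18, SE 0.10, adjusted p = 0.342). For both genes the libraries overlapped, and CTR 4 and CTR 5 were the lowest CTR libraries for Eif2ak3 and the highest for Atf4. Atf4 is regulated mainly in translation, so its mRNA is a poor measure of its activity, and at 101 ± 7.06 FPKM in KO and 111 ± 16.1 FPKM in CTR it had the highest level per length of the branch. Ddit3, which encodes CHOP, a factor tied to cell death in lasting stress, stood at 22.8, 20.6, 26.5, 22.9 and 20.6 CPM in KO, against 28.0, 29.5, 22.5, 29.5 and 40.02 CPM in CTR. The KO libraries lay below all CTR libraries except CTR 3. The fitted log2 difference for Ddit3 was -0.40 (SE 0.14, adjusted p = 0.125), and -0.23 (adjusted p = 0.240) without CTR 4 and CTR 5. Exons of Ddit3 overlap those of Mars, the gene of methionyl-tRNA synthetase, on the other strand in GENCODE M21, as 12 of the 34 genes overlap some other gene entry, and the strand setting of the counts is not given, so shared reads cannot be told apart. Ppp1r15a and Ppp1r15b encode GADD34 and CReP, which return eIF2α to its unphosphorylated state. Ppp1r15a averaged 30.2 ± 5.23 CPM in KO and 29.9 ± 4.55 CPM in CTR (0.01, SE 0.14, adjusted p = 0.966), and Ppp1r15b averaged 145 ± 9.26 CPM in KO and 134 ± 21.0 CPM in CTR (0.11, SE 0.11, adjusted p = 0.594).

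**Figure D3:**
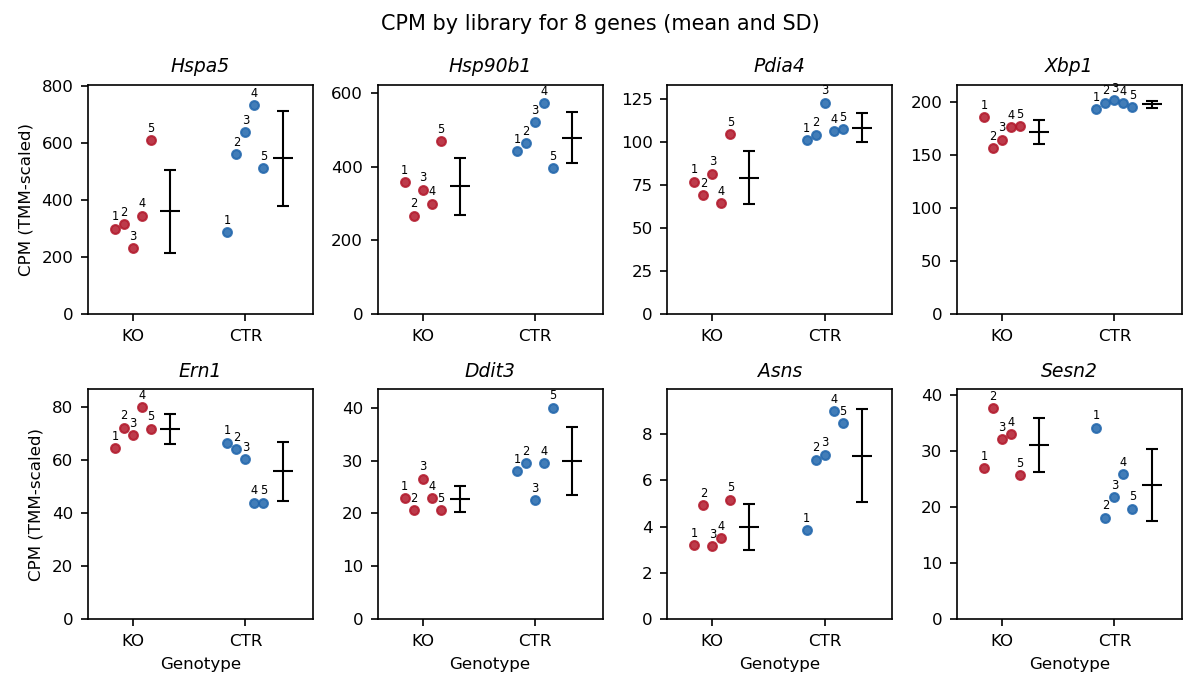
Points give the CPM of each library (numbered by replicate) in KO (red, left) and CTR (blue, right) for 8 genes, and the bars beside them the mean and SD of 5 libraries. Xbp1 is the gene whose KO libraries all lie below the CTR libraries. KO 5 is the highest KO library for Hspa5, Hsp90b1 and Pdia4, and CTR 4 and CTR 5 are the lowest CTR libraries for Ern1.

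Of the 5 ATF4 targets tested, 3 were lower and 2 higher in KO in value, and none passed. Asns, which encodes asparagine synthetase, stood at 3.19, 4.92, 3.15, 3.49 and 5.17 CPM in KO, against 3.85, 6.89, 7.11, 8.99 and 8.48 CPM in CTR. Only CTR 1 among the CTR libraries lay within the KO range. Its log2 fold change was -0.82 (SE 0.23, adjusted p = 0.0703), the lowest of all members, and it passed without CTR 1 (-0.98, adjusted p = 0.0305) but had -0.58 (adjusted p = 0.175) without CTR 4 and CTR 5. Sesn2, which encodes a stress-induced inhibitor of mTORC1, went the other way in value, at 26.9, 37.8, 32.1, 33.03 and 25.8 CPM in KO, against 34.2, 18.11, 21.8, 25.9 and 19.8 CPM in CTR. CTR 1 was the high CTR library, and the other 4 CTR libraries lay below all KO libraries except KO 5, which was level with CTR 4. Its log2 fold change was 0.38 (SE 0.17, adjusted p = 0.225), and its level per length was the highest of the targets, at 9.07 ± 1.43 FPKM in KO and 6.78 ± 1.77 FPKM in CTR.

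Psat1 and Phgdh encode enzymes of serine synthesis. Psat1 varied most among the 33 members used, at 22.6, 19.1, 15.9, 15.8 and 47.4 CPM in KO, against 12.6, 17.9, 13.1, 41.0 and 20.6 CPM in CTR, with KO 5 and CTR 4 far above the other libraries of their genotype. Its log2 fold change was 0.20 (SE 0.37, adjusted p = 0.780), -0.19 without KO 5 and 0.73 without CTR 4 and CTR 5. Phgdh averaged 1.73 ± 0.205 CPM in KO and 2.39 ± 0.822 CPM in CTR (-0.46, SE 0.25, adjusted p = 0.299), and Trib3, which encodes a pseudokinase that restrains ATF4 and CHOP, averaged 5.92 ± 1.43 CPM in KO and 8.05 ± 2.32 CPM in CTR (-0.44, SE 0.22, adjusted p = 0.268). Both were highest in CTR 5, and without CTR 4 and CTR 5 they had -0.09 and -0.15. Chac1, which encodes an enzyme that degrades glutathione, had 1 to 14 counts per KO library and 5 to 13 per CTR library and was not tested.

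A core of the C/EBP-ATF response element (CARE), TGATGNAA on either strand, is the kind of site that ATF4 is known to bind. It was in the windows of 3 of the 6 ATF4 targets and of Herpud1, and in 3.97% of all windows. The 6 genes were listed as known ATF4 targets, so their share is a description and not a test. Psat1, Phgdh and Sesn2 had no match, with log2 fold changes of 0.20, -0.46 and 0.38, against -0.82 for Asns and -0.44 for Trib3, which had one. The sites are shown in the same form, as the ATF4 targets and Herpud1 that hold these letters:
Asns CARE, chr6:7693210-7693247, - strand: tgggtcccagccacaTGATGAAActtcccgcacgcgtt
Trib3 CARE reversed, chr2:152344024-152344061, - strand: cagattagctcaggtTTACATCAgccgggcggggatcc
Chac1 CARE reversed, chr2:119351034-119351071, + strand: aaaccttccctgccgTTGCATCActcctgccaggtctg
Herpud1 CARE reversed, chr8:94386302-94386339, + strand: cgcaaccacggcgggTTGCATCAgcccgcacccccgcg

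ER-associated degradation draws misfolded proteins out of the ER to the proteasome. Of its 6 genes, 3 were lower and 3 higher in value, with a median of 0.02, and with library-size scaling alone Derl1 changed sign. Herpud1, a stress-induced partner of the ligase complex, stood at 29.3, 21.3, 20.1, 21.3 and 34.1 CPM in KO, against 28.9, 31.9, 34.1, 44.2 and 31.9 CPM in CTR. KO 2, KO 3 and KO 4 were below all CTR libraries, and KO 1 and KO 5 were within their range. The fitted log2 difference for Herpud1 was -0.44 (SE 0.17, adjusted p = 0.147). With 1 library left out it ran from -0.57 (without KO 5, SE 0.15, adjusted p = 0.0618) to -0.33. Derl1, a channel component, had the lowest coefficient of variation in KO, 2.28%, against 4.94% in CTR, and stood at 177, 168, 168, 171 and 169 CPM in KO, against 164, 175, 173, 173 and 188 CPM in CTR (-0.03, SE 0.07, adjusted p = 0.801). It also had the highest level per length of the 6, at 48.3 ± 1.05 FPKM in KO and 48.3 ± 3.83 FPKM in CTR.

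The ligase Syvn1 (HRD1) and its adaptor Sel1l were higher in KO in value. Syvn1 averaged 45.2 ± 4.29 CPM in KO and 38.9 ± 13.6 CPM in CTR (0.22, SE 0.21, adjusted p = 0.580), and Sel1l averaged 174 ± 34.9 CPM in KO and 147 ± 26.7 CPM in CTR (0.24, SE 0.15, adjusted p = 0.387). Syvn1 was uneven in CTR, from 21.6 CPM in CTR 5 to 53.3 CPM in CTR 2, a range that held all 5 KO libraries. Derl2 averaged 56.6 ± 2.71 CPM in KO and 65.2 ± 13.7 CPM in CTR (-0.20, SE 0.13, adjusted p = 0.381), and Edem1, a lectin that marks glycoproteins for removal, averaged 344 ± 21.2 CPM in KO and 326 ± 43.3 CPM in CTR (0.08, SE 0.10, adjusted p = 0.685).

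**Figure D4:**
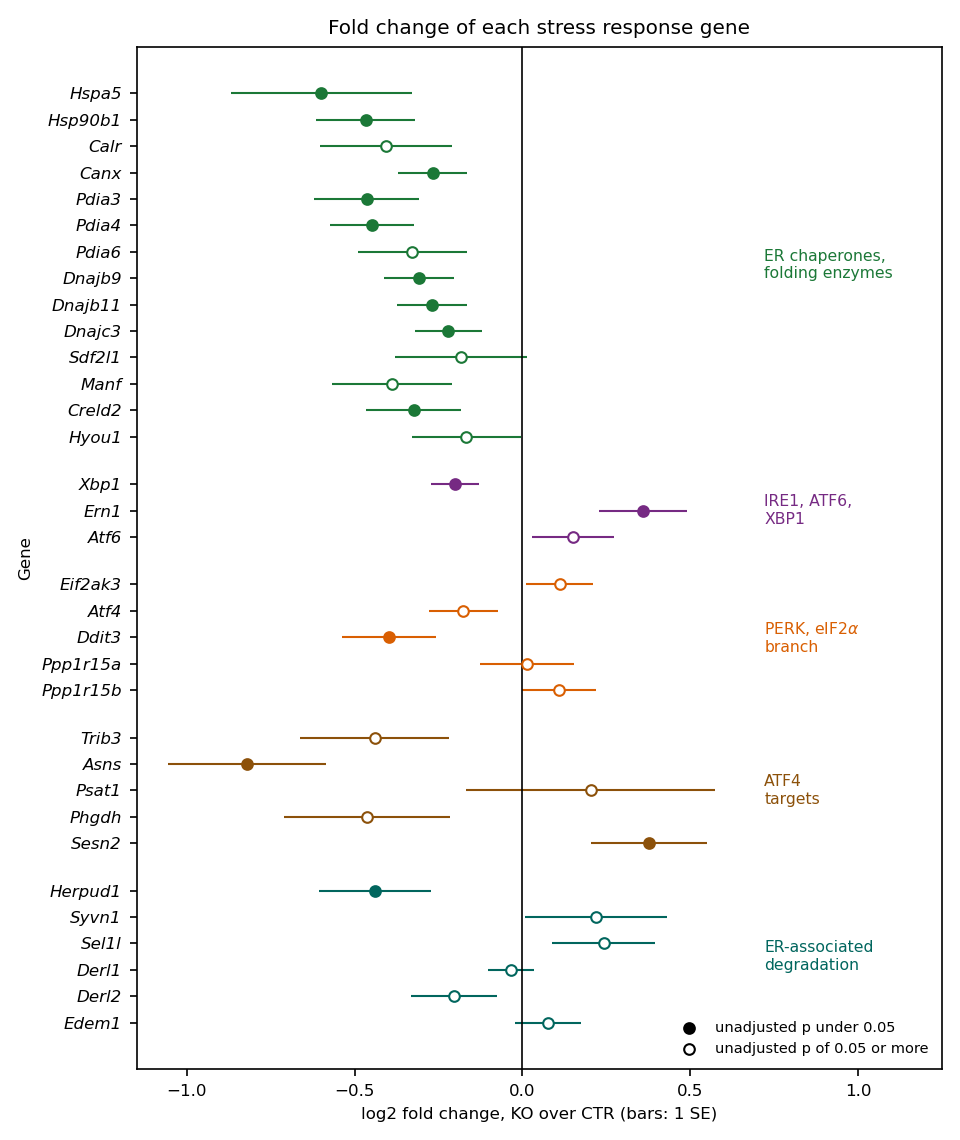
Points give the log2 fold change of KO over CTR of each of the 33 genes from the edgeR fit, with bars of 1 SE, grouped by role, and filled points have an unadjusted p under 0.05. All 14 ER chaperones lie left of 0, from -0.60 to -0.17, and the other groups lie on both sides.

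The groups thus differed in value: the median log2 fold change was -0.33 in the 14 chaperones, 0.15 in the 3 genes of the IRE1 and ATF6 arm, 0.01 in the PERK branch, -0.44 in the 5 tested ATF4 targets and 0.02 in ER-associated degradation. In the same order, these medians were -0.30, -0.03, -0.03, -0.09 and 0.01 without CTR 4 and CTR 5. With a correction for gene length they were -0.29, 0.11, 0.03, -0.37 and 0.01. The groups also differed in median gene length, at 4404.5, 9331, 5531, 3475 and 10536.5 bases. The differences between the groups were not tested.

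Among 112 other genes of the same pathways, 105 were tested, of which 1 rose and 4 fell in KO, against 1.83% and 2.11% of all genes. Sec61b, which encodes a subunit of the channel through which proteins enter the ER, fell to 30.3, 21.3, 29.1, 20.4 and 35.95 CPM in KO 1 to KO 5, against 44.2, 46.5, 52.1, 68.7 and 57.8 CPM in CTR 1 to CTR 5 (log2 fold change -0.97, SE 0.17, adjusted p = 0.0142). No KO library reached the lowest CTR library, and Sec61b lost its call in the leave-one-out fits only without KO 2 (adjusted p = 0.05003). Eif2s1, which encodes eIF2α itself, the protein that PERK phosphorylates, stood at 48.6, 53.3, 61.5, 50.1 and 53.8 CPM in KO, against 72.9, 76.1, 76.8, 65.3 and 83.2 CPM in CTR, again without overlap (-0.49, SE 0.09, adjusted p = 0.0204). Its call was lost without KO 1, KO 2, KO 4 or CTR 3 (adjusted p up to 0.0634). Gars1, which encodes glycyl-tRNA synthetase, fell to 68.7 ± 7.64 CPM in KO, against 91.0 ± 6.59 CPM in CTR (-0.41, SE 0.09, adjusted p = 0.0370). Fkbp11, which encodes a prolyl isomerase of secretory cells, fell to 1.52 ± 0.431 CPM in KO, against 3.87 ± 1.96 CPM in CTR (-1.34, SE 0.33, adjusted p = 0.0437), was highest in CTR 4, at 7.16 CPM, and is also among the plasma cell markers above. The 1 that rose was Ddit4, which encodes REDD1, an inhibitor of mTORC1, at 5.74, 6.35, 6.88, 7.48 and 3.91 CPM in KO, against 3.13, 1.93, 2.43, 3.78 and 3.74 CPM in CTR (1.02, SE 0.23, adjusted p = 0.0321). Gars1 lost its call without any 1 library but CTR 4, CTR 5 or KO 5 (adjusted p up to 0.109), Fkbp11 without CTR 3, CTR 5 or any 1 of KO 1 to KO 4 (up to 0.123), and Ddit4 without CTR 1, CTR 3 or any 1 of KO 1 to KO 4 (up to 0.0893). Without CTR 4 and CTR 5 Fkbp11 also lost its call (-0.88, adjusted p = 0.0766).

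By group, the genes of ER import and vesicle export that XBP1 is known to raise leaned lower. All 17 tested had a log2 fold change below 0, against 50.8% of all genes, and 16 of 17 did with library-size scaling alone. Their median was -0.22, and 1 passed (Sec61b). At an unadjusted p under 0.05, 5 (29.4%) were lower, against 11.9% of all genes. Without CTR 4 and CTR 5, 16 of 18 were below 0, with a median of -0.15. Of 24 other ER folding genes 15 were lower and 9 higher in value, with a median of -0.08, and 1 passed (Fkbp11). Of 14 other sensors and regulators 5 were lower and 9 higher, with a median of 0.08, and none passed. Of 10 other eIF2α kinases and factors 7 were lower and 3 higher, and Eif2s1 passed. Of 23 other ATF4 targets 16 were lower and 7 higher, with a median of -0.17, and Ddit4 and Gars1 passed in opposite directions. Within them, 9 aminoacyl-tRNA synthetase genes, a set taken out after the values were seen, had 6 lower at an unadjusted p under 0.05, beside the same 11.9% of all genes, and 1 that passed, with a median of -0.26. All 9 were below 0 with TMM scaling and 8 with DESeq2 size factors or library size, Eprs1 being the one at the border, with -0.00044 under TMM. Of 17 other genes of ER-associated degradation 10 were lower and 7 higher, with a median of -0.02, and none passed, though with library-size scaling alone 8 were lower and 9 higher.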

How the data were processed

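Total RNA of 10 cultured peritoneal macrophage libraries, 5 KO and 5 CTR, was sequenced with standard Illumina libraries, per the labels' protocols. The authors deposited raw gene counts, and CASAVA 1.8, HISAT2, SAMtools 1.3.1, edgeR and the build GRCm39 are named per the submitters' processing notes, with no role given. No source used here gives the counter, its annotation or its strand setting. The authors also deposited FPKM values, used here only for levels between genes. The 191 rows without a symbol held 0.0403% of counts.

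Counts were tested in R 4.3.3 with the edgeR 4.0.16 quasi-likelihood test (filterByExpr, TMM scaling, genotype as the sole term, two-sided, Benjamini-Hochberg over 13203 genes, threshold 0.05). CPM values are TMM-scaled, marker sums included, except in the filter at 1 CPM, which used library size. Alternatives were other scalings, filters and fits, DESeq2 1.42.0, limma 3.58.1 voom, a replicate block, a gene length correction, and libraries left out. The scripts were tested on simulated data. There the edgeR fit called 4% of 50 genes changed 1.25-fold, 32% of 50 changed 1.5-fold and 90% of 50 changed 2-fold. A count of 3 corresponds to 0.154 to 0.203 CPM. All members were named, with values in every library for those with an unadjusted p under 0.05, the head genes of each arm and its highest FPKM, and of other pathway genes those that passed. Members and lists were chosen with earlier results of these data known. No pair of libraries agreed within sampling noise.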

Additional observations from a re-analysis of the deposited data

Results flagged for a closer look

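Among 78 groups of 5 libraries, 3 had a library whose gap to its nearest neighbour exceeded Dixon's 95% limit of 0.71 of the range, where chance flags about 1 in 20. Psat1 in KO 5 was the highest KO value at 47.4 CPM, with the nearest at 22.6 CPM, a gap of 0.785 of the range. Psat1 in CTR 4 was the highest CTR value at 41.0 CPM, with the nearest at 20.6 CPM, a gap of 0.718. Dnajb9 in CTR 5 was the lowest CTR value at 34.7 CPM, with the nearest at 45.5 CPM, a gap of 0.833.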

How the results depend on the processing

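edgeR called 520 of all genes, 0 members and 5 other pathway genes, and 15 members had an unadjusted p under 0.05. With no filter on low counts the calls were 261 genes and 2 other pathway genes. DESeq2 called 1289 genes, 4 members and 9 other pathway genes, and voom with quality weights 1919, 7 and 22. Without CTR 4 and CTR 5 the calls were 1185, 1 and 11, with 8 members at an unadjusted p under 0.05. Leaving out 1 library gave 62 (without KO 2) to 868 (without CTR 4) genes, 0 to 3 members (3 without KO 5), 0 (without KO 2) to 10 (without CTR 4) other pathway genes, and 8 to 19 members at an unadjusted p under 0.05. Equal replicate numbers did not pair libraries, with residual correlations of -0.126 to 0.0582, and with a replicate block the calls were 104 genes, 0 members and 1 other pathway gene. Gnas stayed between -3.50 and -3.39 with 1 library left out. Signs reversed in 15 cases, and the cause was not tested. Derl1 was 0.00196 with library size only, 0.0205 with the length correction and 0.00195 without CTR 4 and CTR 5. Edem1 was -0.0226 with voom. Without CTR 4 and CTR 5, Edem1 was -0.0532, Sdf2l1 0.0795, Atf6 -0.0263, Ppp1r15b -0.0344 and Derl2 0.0146. Ppp1r15a, from -0.0714 to 0.0931 with 1 library left out, was -0.0714 without KO 2, -0.0233 without KO 3, and -0.0247, -0.0295 and -0.0237 without CTR 1, CTR 2 or CTR 3. Psat1 was -0.193 without KO 5 and up to 0.588 with another library left out. Counts per library went down to 24 among the members used (Phgdh).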

Other observations

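Outside the members, 9 tested genes had ERSE in their promoter window, of which 6 were lower in KO in value and none was called by edgeR (0 also at an unadjusted p under 0.05), with a median log2 fold change of -0.04. For ERSE-II, 6 of 7 such genes were lower in value and 1 fell. Of 251 other tested genes with the CARE letters, 117 were lower in value, 3 fell and 4 rose. The CRE letters TGACGTCA, in 1.79% of all windows and in that of Ppp1r15a, were in 339 other tested genes, of which 179 were lower in value, 4 fell and 7 rose. Of all genes tested, 50.8% were lower in value, 2.11% fell and 1.83% rose. The UPRE letters TGACGTGG, in 0.676% of all windows, were in none of the members' windows.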
